A study of Mus musculus with 12 samples.

Results

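In total 715 regions of open chromatin were found in aortic endothelial cells of both groups of offspring given Western diet (WD) again and in neither group of offspring on control diet (CD). They were chosen by merging the peaks of 4 ATAC-seq peak lists on chromosomes 1 to 19 and X into 48003 regions and keeping those that held a peak of both WDO lists and of neither CDO list, which is 1.49% of all merged regions. ATAC-seq marks DNA that a transposase can reach. The cells were mouse aortic endothelial cells (MAECs), the inner lining of the aorta, where atherosclerosis starts. There were 8 ATAC-seq samples, 2 in each of 4 groups whose names give the mothers' diet (M) first and the offspring's (O) after it. In CDM-CDO both generations had CD, in WDM-CDO the mothers alone had WD, in CDM-WDO the offspring alone had WD, and in WDM-WDO both generations had WD. The WDO offspring of both groups had been put back on WD for 4 weeks. The sources used here do not give strain, genotype, age or the number of animals per sample.

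Each group had 1 peak list, so there were no replicates, no test and no p-value, and every count below describes these 4 lists. Intervals are 95% Wilson intervals of a share and cover counting error only. The names of the peaks carried the tag 08w in both CDO lists and 12w in both WDO lists. The sources used here do not say what the tag stands for. The offspring's diet and this tag cannot be told apart.

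Open chromatin at the start of a gene is a promoter in most cases and is often shared between cell states. Open chromatin within introns or between genes is often an enhancer, a site where transcription factors bind to control a gene at a distance, and differs more between cell types and stimuli. In endothelium, lipid-rich diets are known to bring on inflammatory genes controlled by NF-kB and AP-1, and cells that take up cholesterol turn on its export through the liver X receptors.

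The promoter DNA of 3 of the regions is shown first. Among the genes named by the rule given under the processing, these were the ones whose RefSeq promoter lay within a region. Each line gives the 250 bases before the RefSeq start on GRCm38.p6, plus strand, 5′ to 3′, with matches to the motifs described further on in capitals. F10 encodes coagulation factor X (chr8:13037058-13037307), S100a8 encodes a calcium-binding protein of neutrophils and inflamed tissue (chr3:90668821-90669070), and Col1a2 encodes a chain of type I collagen (chr6:4505368-4505617).

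F10: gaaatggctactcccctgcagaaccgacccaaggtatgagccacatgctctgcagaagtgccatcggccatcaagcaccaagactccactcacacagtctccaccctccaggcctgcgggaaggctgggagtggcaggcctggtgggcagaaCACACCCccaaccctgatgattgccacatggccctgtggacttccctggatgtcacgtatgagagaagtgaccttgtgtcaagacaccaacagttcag
S100a8: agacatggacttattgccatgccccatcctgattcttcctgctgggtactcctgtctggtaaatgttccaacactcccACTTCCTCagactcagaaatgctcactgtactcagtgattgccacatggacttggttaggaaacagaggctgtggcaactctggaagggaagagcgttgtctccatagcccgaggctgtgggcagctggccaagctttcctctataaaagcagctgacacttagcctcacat
Col1a2: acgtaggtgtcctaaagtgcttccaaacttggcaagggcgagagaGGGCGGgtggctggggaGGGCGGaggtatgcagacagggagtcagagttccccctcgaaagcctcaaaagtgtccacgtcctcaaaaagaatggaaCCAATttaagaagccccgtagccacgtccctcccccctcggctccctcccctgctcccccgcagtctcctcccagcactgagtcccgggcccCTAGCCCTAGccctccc

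The capitals mark a KLF CACCC box in F10 and a PU.1-type ETS motif in S100a8. In Col1a2 they mark, in order, a pair of SP/KLF boxes, an NF-Y box and a stretch found by the MEF2 search. That search left the central bases open to any letter, and in this stretch all of them were G or C. The stretch is a match to loose letters and is not taken as a MEF2 site. The F10 stretch had a GC content of 57.6% and 4 CpG pairs, S100a8 50.8% and 2, and Col1a2 62.0% and 11. Relative to the start of S100a8, the summit of the peak lay at -144 bp in CDM-WDO and 57 bp in WDM-WDO. The summits lay at -17 and -124 bp for Col1a2, and at -364 and -616 bp for F10, upstream of the printed stretch. The nearest peak of a CDO list was 67406 bp from the F10 region, 40636 bp from the S100a8 region and 85944 bp from the Col1a2 region.

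The opposite pattern was more frequent. There were 2777 regions with a peak in both CDO lists and neither WDO list, 5.79% of all merged regions and 3.88 for each of the 715. Of the 12230 regions with a peak in both WDO lists, 10351 were in all 4 lists, 998 were also in WDM-CDO alone, 166 were also in CDM-CDO alone and 715 (5.85%) were in neither CDO list. Of the 16709 regions in both CDO lists, 16.6% were in neither WDO list. The CDM-WDO list was the shortest with 18962 peaks, against 22178 for CDM-CDO, 28319 for WDM-CDO and 26275 for WDM-WDO, and its median summit pileup was the lowest at 31 reads against 36, 38 and 39. The 715 regions made up 9.45% of the 7570 regions of CDM-WDO that CDM-CDO lacked and 7.22% of the 9904 regions of WDM-WDO that WDM-CDO lacked.

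The 715 regions were mostly weak peaks. Their strength is given as the number of reads piled up at the summit, recovered from the deposited scores, and as the −log10 q of the authors' peak caller, where a higher value is a stronger call. In CDM-WDO the lowest, median and highest pileups were 15, 25 and 272 reads, and in WDM-WDO they were 16, 32 and 362 reads. The −log10 q ran from 1.31 through a median of 3.69 to 18.8 in CDM-WDO, and from 1.36 through 5.57 to 38.9 in WDM-WDO. The authors' fold enrichment over local background had medians of 2.92 and 3.01. A pileup of 30 reads or more in both lists was reached by 171 of the 715. These values helped to choose the regions and are a description only.

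At the threshold, 82 of the 715 had a −log10 q under 2 in at least 1 WDO list, the lowest at 1.31. Just outside it, 27 of the 1164 regions with both WDO peaks and 1 CDO peak had that CDO peak under 2, also down to 1.31. The WDM-WDO list had more reads per region in general. At 3548 strong regions of all 4 lists (−log10 q of at least 20 in each), the median ratio of reads above background in WDM-WDO to those in CDM-WDO was 1.43. After scaling by that ratio, the CDM-WDO value at the 715 regions was 0.438 to 3.40 times the WDM-WDO value with a median of 1.07, and was higher at 410 of them.

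**Figure D1:**
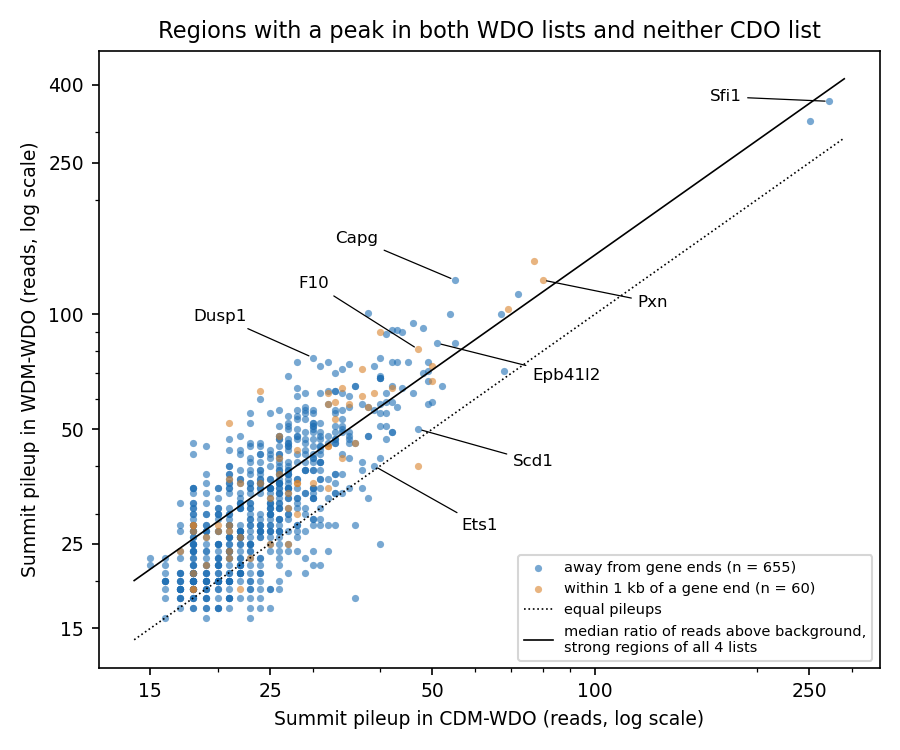
Summit pileup of the 715 regions in CDM-WDO (horizontal, reads, log scale) and WDM-WDO (vertical, reads, log scale); each point is 1 region, orange within 1 kb of a gene end and blue elsewhere, with equal pileups dotted and the ratio of 1.43 solid. The median region has 25 and 32 reads, and the highest point is at Sfi1 (272 and 362 reads).

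Absence from the other diet went with weak peaks in both directions. Among regions in both WDO lists, those with a lower pileup under 20 reads lacked a CDO peak in 46.1% of cases (41.0 to 51.3%, 165 of 358), and that share was 15.5% at 20 to 29 reads, 3.49% at 30 to 49 and 0.321% (16 of 4989) at 50 or more. Among regions in both CDO lists, the share that lacked a WDO peak was 46.5% under 20 reads, 37.1% at 20 to 29, 18.7% at 30 to 49 and 3.0% (218 of 7278) at 50 or more. The shares of the 2 directions were close for the weakest regions and apart for the stronger ones, where absence from the WDO lists was the more frequent. These classes use reads that were not scaled between lists, so a class need not mean equal strength in both directions. At the 3548 strong regions given above, median reads above background in CDM-WDO were 0.834 times those in CDM-CDO and 0.554 times those in WDM-CDO. For WDM-WDO the ratios were 1.19 and 0.790. The part of depth in the gap between the directions was not tested.

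The pileup that each of the 715 regions would have in a CDO list, were it as open there, was worked out by scaling its reads above background with the median ratio at the strong shared regions. The median expected pileup was 27 reads in CDM-CDO, where a median of 18 was needed for a call, and 38.0 reads in WDM-CDO, where 19 were needed. All 715 reached the needed pileup in both CDO lists, which the scaling largely fixes, since the CDO lists had lower background or more reads per region. Only 40 (5.59%) reached 2 times the needed pileup in both. Among the 2777 regions of the opposite pattern, 80.4% reached the needed pileup in both WDO lists and 1.91% reached 2 times that. The quartiles of the scaling ratio from CDM-WDO to CDM-CDO were 1.03 and 1.38 around a median of 1.20, so a region close to the needed pileup can fall under it within the spread of shared regions.

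**Figure D2:**
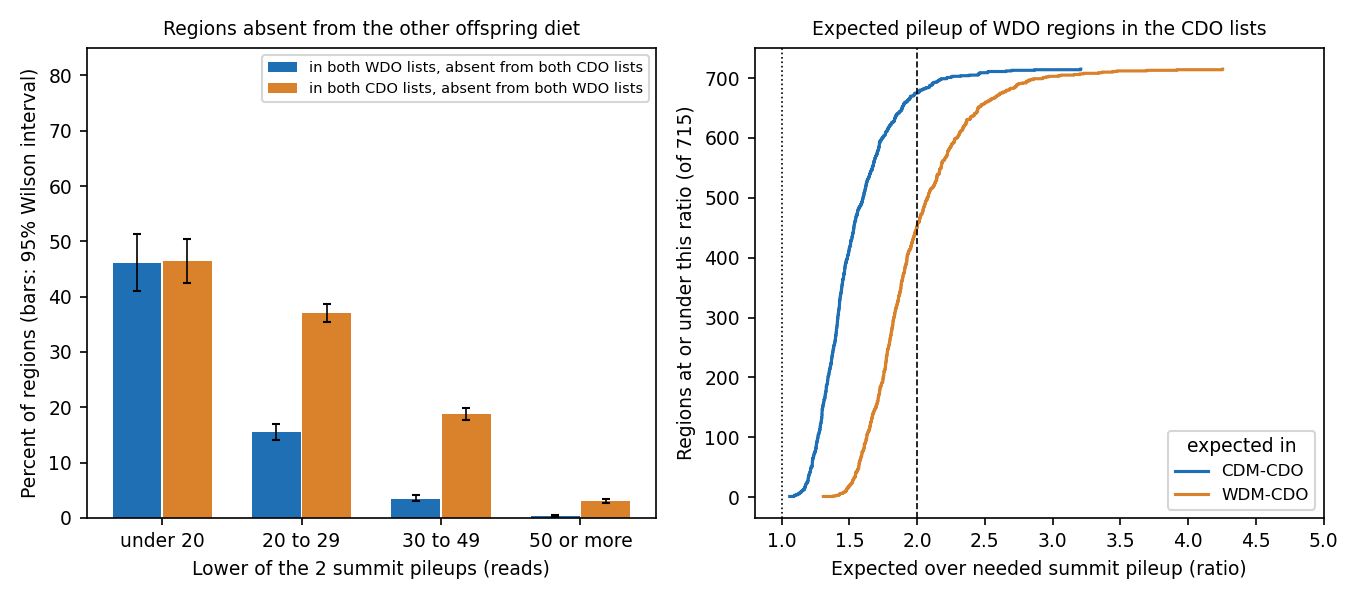
Left, percent of regions present in both lists of 1 offspring diet that were absent from both lists of the other, by the lower of the 2 summit pileups (reads), with bars for 95% Wilson intervals; right, the number of the 715 regions (vertical) at or under each ratio of expected to needed pileup (horizontal) in the 2 CDO lists, with lines at 1 and 2. The shares fall from 46.1% to 0.321% for the WDO regions, and in CDM-CDO most regions lie between ratios of 1 and 2.

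Most of the 715 regions lay away from the ends of genes. A protein-coding gene started or ended within 1 kb of 60 of them, or 8.39% (6.57 to 10.7%), against 24% (22.5 to 25.6%) of the 2777 regions of the opposite pattern and 67.4% of the 10351 regions of all 4 lists. Over all 48003 merged regions the share was 24.7%, so the opposite pattern lay near it and the 715 below it. Read the other way, 60 of the 11860 gene-end regions were among the 715, 0.506%, against 1.49% of all merged regions. The ordering of the 715, the opposite pattern and the regions of all 4 lists was the same in each class of lower pileup. For regions of all 4 lists that pileup was taken from the WDO lists. At 30 reads or more the gene-end shares were 14.6% (10.1 to 20.7%), 27.8% and 70.6%, and under 20 reads they were 6.06%, 12.4% and 30.9%. The median distance to a gene end was 20629 bp, against 11819 bp for the opposite pattern and 14513 bp for all merged regions. Inside the span of a protein-coding gene lay 356 (49.8%, 46.1 to 53.4%), against 64.9% of the opposite pattern and 84.5% of the regions of all 4 lists. The share of all merged regions was 58.6%. Spans of long non-coding RNA genes held 84 (11.7%), 62 of them outside any coding span, and the share for the opposite pattern was 13.6%.

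**Figure D3:**
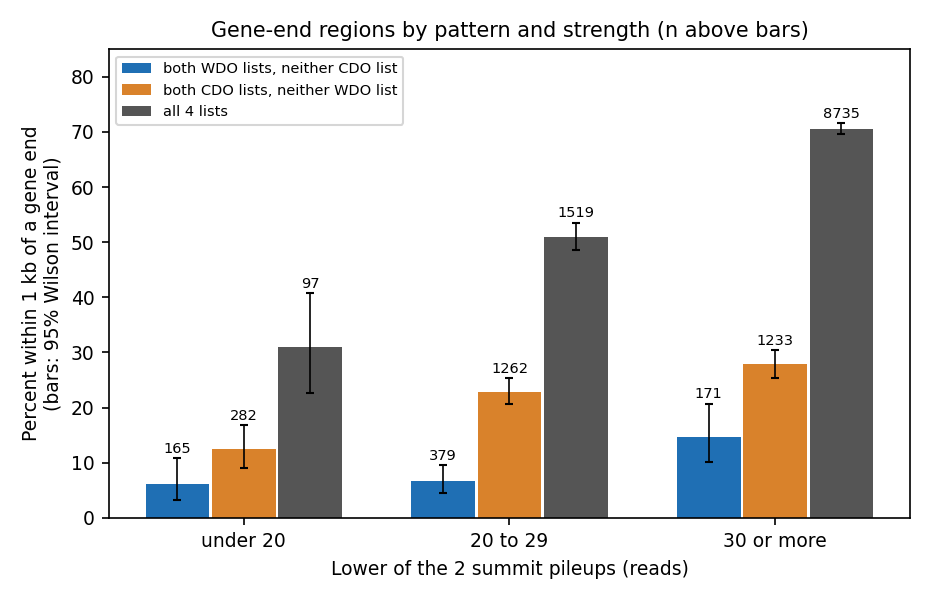
Percent of regions within 1 kb of a protein-coding gene end (vertical) by the lower of 2 summit pileups (horizontal, reads), for the 3 sets of regions. The 2 pileups are those of a set's own diet, and those of the WDO lists for regions of all 4 lists. Bars are 95% Wilson intervals, with the number of regions above each bar. The 715 regions had the lowest share in each of the 3 strength classes, 6.06%, 6.60% and 14.6%.

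The regions had a median width of 640 bp, against 1042 bp for regions of all 4 lists, 660 bp for the opposite pattern and 526 bp for all merged regions. The summits of the 2 WDO peaks of a region were a median of 107 bp apart and within 100 bp in 47.7% of regions, against 58.6% for the opposite pattern. At 30 reads or more these shares were 58.5% and 70.8%. The nearest CDO peak was a median of 11261 bp away, 26 regions (3.64%) had one within 500 bp and 45 (6.29%) within 1 kb. The regions were scattered, with 11 neighbouring pairs within 10 kb of each other. By chromosome the share of merged regions ran from 0.660% (0.369 to 1.18%) on X to 2.68% (1.94 to 3.68%) on 19. For the opposite pattern X was at 3.78% and 19 at 6.54%.

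The strongest gene-end region by the lower −log10 q lay at Pxn. Pxn encodes paxillin, an adaptor of focal adhesions, and its region (chr5:115491904-115492266) had 80 reads in CDM-WDO and 123 in WDM-WDO, with −log10 q of 17.2 and 25.6. Its local background was 6.06 times that of the genome and a CDO peak lay 1132 bp away. At F10, where neither CDO list had any region assigned to the gene, the region (chr8:13036213-13037387) had 47 and 81 reads. Klf6 encodes a zinc finger transcription factor, and its region (chr13:5870025-5870686) had 50 and 67 reads over a local background 4.69 times that of the genome. Bhlhe41, a repressor of the circadian clock, had 35 and 58 reads 345 bp from the gene. Arf2, a small GTPase of membrane traffic, had 34 and 42 reads, and Zfand5, a zinc finger protein linked to the proteasome, had 26 and 48.

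The other 4 of the 10 strongest gene-end regions were those of Ccdc180 with 38 and 57 reads, Tmem141 with 37 and 61, Tm4sf19 with 32 and 62, and Smagp, a small transmembrane glycoprotein of cell contacts, with 32 and 45. All 10 had more reads in WDM-WDO than in CDM-WDO before scaling. Tmem141, Tm4sf19 and Zfand5 also had no assigned region in either CDO list. Over all 596 genes with at least 1 of the 715 regions, 59 (9.90%) had none in a CDO list and 370 (62.1%) had a region in all 4 lists. For the 2152 genes of the opposite pattern, 18.4% had no region in a WDO list.

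Away from gene ends, the strongest call was within Epb41l2, which encodes an adaptor between membrane and cytoskeleton. That region (chr10:25366707-25367153) had 51 reads in CDM-WDO and 84 in WDM-WDO, fold enrichments of 5.20 and 6.63, and an expected pileup 3.21 times the one needed in the CDO list where the ratio was lower. Within Cd84, a receptor of the SLAM family on leukocytes, the region (chr1:171849332-171849850) had 41 and 62 reads. Scd1, the stearoyl-CoA desaturase that makes monounsaturated fatty acids, had a region 11005 bp away (chr19:44382918-44383445) with 47 and 50 reads. Ets1 encodes a transcription factor of endothelial and lymphoid cells, and its region (chr9:32652073-32652479) had 39 and 40 reads. Of the 24 regions assigned to Ets1, CDM-CDO held 14, WDM-CDO 15, CDM-WDO 7 and WDM-WDO 13, and 3 had the opposite pattern. At Scd1 and Ets1 the pileups were nearly equal, so after scaling the CDM-WDO value was 1.34 and 1.36 times the WDM-WDO value.

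Others of that class were near Irf2bp2, a transcriptional corepressor (49 and 67 reads, 36532 bp away), within Tmem267 (35 and 48 reads), near the RNA-binding protein gene Larp4b (41 and 51 reads, 16684 bp away), near A430033K04Rik (30 and 56 reads, 34192 bp away), and at chr10:21608300-21610012 with no coding gene within 100 kb (40 and 69 reads). Tmem267 had the highest fold enrichments of the 715, 5.55 and 6.92, over a background at the level of the genome.

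There were 5 genes with 3 of the regions each, 26 genes with 2 and 565 with 1. Il1r1 encodes the interleukin-1 receptor, and its regions had 26 and 34, 31 and 35, and 26 and 31 reads. Of the 7 regions assigned to Il1r1, CDM-CDO held 1, WDM-CDO 3, CDM-WDO 3 and WDM-WDO 6, and 1 had the opposite pattern. Ptpre, a receptor-type tyrosine phosphatase, had regions of 35 and 47, 46 and 95, and 29 and 27 reads, and 2, 5, 6 and 9 of its 10 regions were in the lists in the same order. The regions of the forkhead transcription factor gene Foxp1 had 32 and 63, 25 and 43, and 19 and 28 reads, and those of the helix-loop-helix factor gene Tcf4 had 22 and 27, 25 and 24, and 19 and 34. Of the 43 regions assigned to Foxp1, the lists in that order held 20, 25, 11 and 27, and 2 had the opposite pattern. Of the 19 assigned to Tcf4 they held 7, 14, 9 and 8, and 1 had the opposite pattern. At Il1r1, Foxp1 and Tcf4 the WDO lists did not both hold more regions than each CDO list, and at Ptpre they did.

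Sfi1, a gene of the centrosome, had a pair of regions with the highest pileups of the 715. These lay within the gene and had 272 and 362 reads, and 251 and 322 reads, at fold enrichments of 1.40 to 1.56, over a local background up to 38.2 times that of the genome. The third Sfi1 region (chr11:3101238-3102415), 29435 bp outside the gene, had 30 and 35 reads at fold enrichments of 3.91 and 2.89 over a local background 1.88 times that of the genome. Of the 31 regions assigned to Sfi1, 23 were in all 4 lists. Over the 715 regions, 63 had a local background more than 3 times that of the genome in at least 1 WDO list.

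For the gene lists, each region was assigned to the nearest protein-coding gene span within 100 kb. Of 41486 assigned regions, 632 were among the 715, which is 1.52%, and 2598 had the opposite pattern, which is 6.26%. The 24 lists together held 30 of 1262 regions, 2.38% (1.67 to 3.37%). In bulk chromatin, a site opening within a cell type and a larger share of cells in which it is open cannot be told apart, which bears on every list. With 24 lists and no adjustment for their number, an interval that misses 1.52% is a description and not a test.

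Cholesterol export and oxysterol genes had 6 of 85 regions (7.06%, 3.28 to 14.6%) against the 1.52% over all assigned regions, and 3 of 85 with the opposite pattern. The list mixes exporters of cholesterol, the liver X receptors and other genes of cholesterol and oxysterol handling. Abcg1, a cholesterol exporter, had a region within the gene (chr17:31074759-31075752) of 48 reads in CDM-WDO and 92 in WDM-WDO, over a local background 4.04 times that of the genome. Rxra, the partner of the liver X receptors, had 41 and 59 reads. Lipa, the lysosomal lipase that frees cholesterol from its esters, had 29 and 56. Abca1, which loads cholesterol onto apolipoprotein A-I, had 26 and 56 reads at chr4:53250181-53250814 and 25 and 37 reads at chr4:53238300-53239936, 90193 and 78312 bp from the gene. Of the 21 regions assigned to Abca1, CDM-CDO held 5, WDM-CDO 11, CDM-WDO 8 and WDM-WDO 18. The sixth region, named outside the rule after its values were seen, lay in Soat1, the enzyme that esterifies cholesterol, with 26 and 37 reads. In the same order the lists held 7, 8, 5 and 7 regions of Abcg1 and 2, 4, 2 and 3 of Lipa. They held 1, 2, 1 and 5 of Rxra and 1, 2, 3 and 3 of Soat1. The 3 regions of the opposite pattern were at Abcg1, Lipa and Apoe. Over the whole list the numbers of regions in the same order were 32, 51, 34 and 66, so WDM-CDO also had more than CDM-WDO. The other 10 genes of the list had no region among the 715.

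Antigen presentation genes had 4 of 52 regions (7.69%, 3.03 to 18.2%), and 6 of 52 (11.5%) had the opposite pattern. H2-D1 belongs to class I, which presents peptides to CD8 T cells, and its region had 49 and 75 reads. H2-Aa and H2-Ab1 encode the chains of a class II molecule, which presents to CD4 T cells. H2-Aa had regions of 50 and 59, and 45 and 75 reads, and H2-Ab1 had 1 of 39 and 62 reads. All 4 lay over local backgrounds 3.74 to 4.84 times that of the genome, and without regions of such background, above 3 times, the list had 0 of 17.

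The list of adhesion and chemokine genes of activated endothelium had 1 region among the 715. Ccl2, the chemokine that draws monocytes to the endothelium, had a gene-end region (chr11:82035379-82035762) with 32 reads in CDM-WDO and 58 in WDM-WDO, and was the only gene of that list, with 1 of 31 regions (3.23%, 0.572 to 16.2%). Over the 5 regions assigned to Ccl2, CDM-CDO held 0, WDM-CDO 2, CDM-WDO 2 and WDM-WDO 4. The NF-kB list had 3 of 102 (2.94%, 1.01 to 8.29%). Its members were near Tnfaip3, which encodes the NF-kB inhibitor A20 (28 and 75 reads), within Ikbkb, a kinase that activates NF-kB (27 and 51 reads), and 76921 bp from Nfkbiz, a nuclear inhibitor protein of that family (23 and 34 reads).

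The list of AP-1 subunits and early response genes held 2 among its 90 regions (2.22%), near Dusp1, a phosphatase that turns off MAP kinases (30 and 77 reads), and near the AP-1 subunit gene Fosl2 (26 and 29 reads). Dusp1 had the lowest scaled ratio of the 715 regions, 0.438. The intervals of the NF-kB and AP-1 lists include 1.52%. Interferon response genes had 0 of 40.

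Genes of fatty acid handling had 3 of 78 regions (3.85%, 1.32 to 10.7%), the one near Scd1 already given and a pair at Cd36, a scavenger receptor and fatty acid transporter. The Cd36 regions had 19 and 45 reads within the gene (chr5:17879915-17880483) and 21 and 20 reads 13242 bp away. Of the 11 regions assigned to Cd36, CDM-CDO held 0, WDM-CDO 2, CDM-WDO 8 and WDM-WDO 7. Cholesterol synthesis and uptake genes had 0 of 35, and oxidative stress defence genes 0 of 54.

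The lists of endothelial genes had shares near that of all assigned regions. The identity list had 1 of 106 (0.943%, 0.167 to 5.15%), at Ets1. Of its regions 6 (5.66%) had the opposite pattern, against 6.26% over all assigned regions. Shear stress and vascular tone genes had 1 of 59 (1.69%), 15152 bp from Klf2, the transcription factor induced by laminar flow (29 and 30 reads). TGF-beta and mesenchymal transition genes had 1 of 111 (0.901%), 26397 bp from Zeb2, a repressor of epithelial genes (25 and 42 reads). Notch and angiogenesis genes had 0 of 79, and histone acetylation and methylation enzyme genes 0 of 69. Housekeeping genes had 1 of 47 (2.13%), near Ywhaz (31 and 37 reads). The intervals of these 6 lists all include 1.52%.

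Markers of other cell types were checked in the same way. In the order CDM-CDO, WDM-CDO, CDM-WDO and WDM-WDO, the lists held 22178, 28319, 18962 and 26275 peaks. Over all 21627 protein-coding genes, 48.1, 51.2, 40.1 and 47.6% had a gene-end peak in that order, so CDM-WDO was lowest for genes at large. A gene-end peak was found at 8, 10, 7 and 7 of the 20 endothelial identity genes, and 2 of them, Sox18 and Robo4, had no region in any list. The 16 macrophage and monocyte markers had gene-end peaks at 5, 5, 3 and 11 genes and 14, 17, 11 and 33 regions, and C1qc had none, so WDM-WDO had the most and CDM-WDO the fewest. None of their 42 regions was among the 715, and 4 (9.52%) had the opposite pattern, against 6.26% over all assigned regions. Lipid-laden macrophage genes had 23, 30, 20 and 46 regions, and 2 of 58 were among the 715 (3.45%), both near Lgals3, which encodes galectin-3 (38 and 101, and 26 and 33 reads). The opposite pattern was at 5 of the 58 (8.62%).

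T cell markers had 26, 33, 9 and 18 regions, and 1 of 48 was among the 715, near Cd5 (22 and 26 reads), against 9 of 48 with the opposite pattern. B cell markers had 15, 14, 7 and 18 regions, and 2 of 33 were among the 715 (6.06%, 1.68 to 19.6%), within Ebf1, a transcription factor of B cells (23 and 23 reads), and at Ms4a1, which encodes CD20 (18 and 28 reads); Cd22 had no region. Neutrophil markers had 1, 5, 2 and 6 regions and gene-end peaks at 0, 0, 1 and 4 genes. Of their 13 regions 1 was among the 715, at S100a8 (22 and 36 reads), and Cxcr2, Elane, Camp and Ngp had no region. Fibroblast markers had 5, 12, 7 and 11 regions, 1 of 22 among the 715, at Col1a2 (19 and 26 reads), and Col3a1, Dcn and Lum had none. Smooth muscle, adipocyte and red cell markers had 0 of 13, 0 of 12 and 0 of 4. The opposite pattern was at 7 of 33 B cell, 0 of 13 neutrophil and 2 of 22 fibroblast marker regions. The part of such cells in the regions at immune, lipid and matrix genes was not tested.

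**Figure D4:**
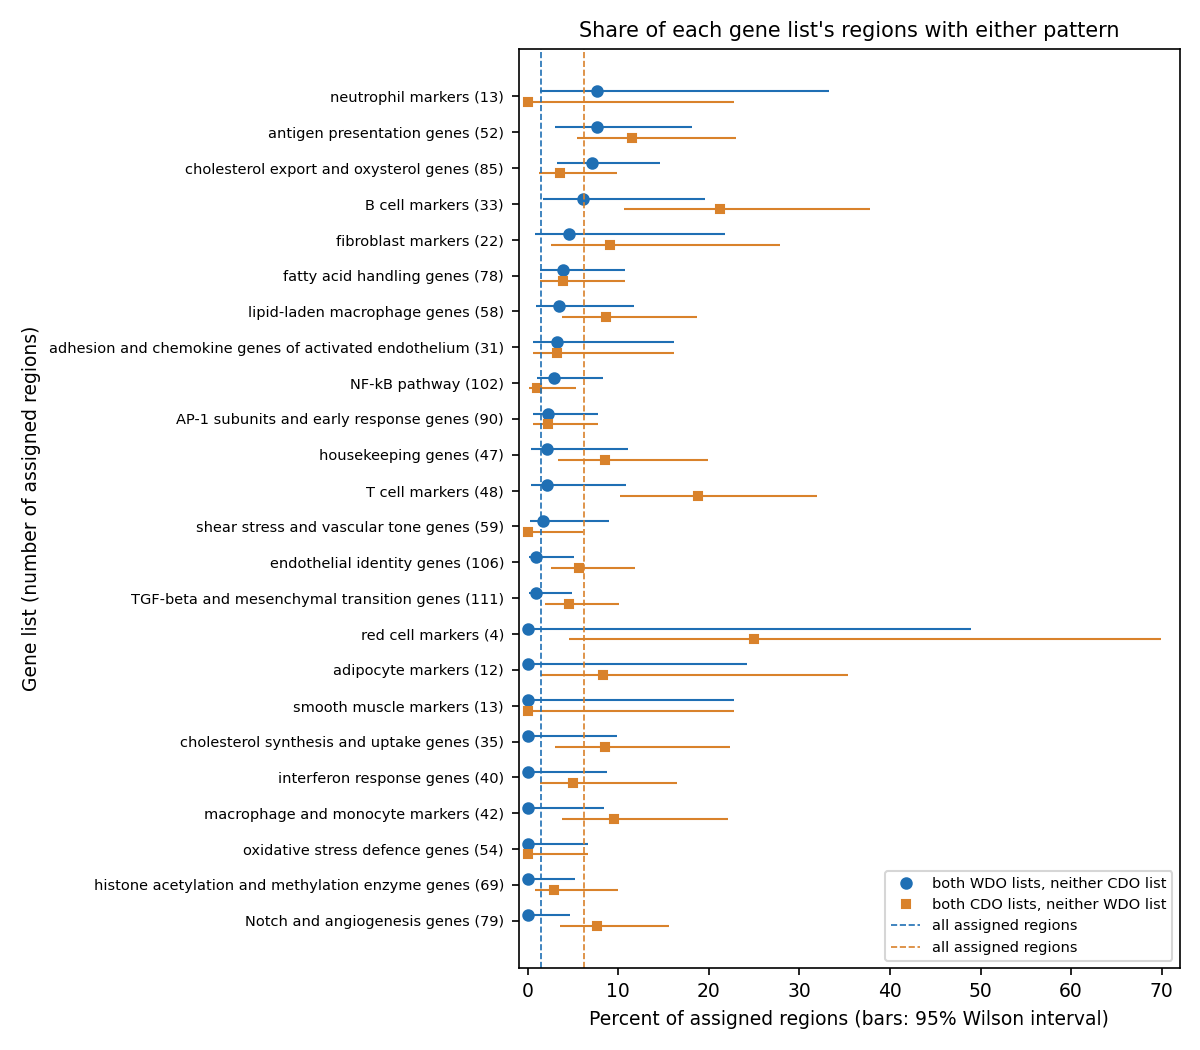
Percent of each list's assigned regions (horizontal; number of regions in brackets) that were among the 715 (blue circles) or had the opposite pattern (orange squares), with 95% Wilson intervals and dashed lines at 1.52% and 6.26% for all assigned regions. Cholesterol export and antigen presentation genes are the lists whose blue interval, 3.28 to 14.6% and 3.03 to 18.2%, starts highest above its line.

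The promoters within the 715 regions had the GC and CpG content of promoters at large. RefSeq promoter windows of 300 bases, 250 before to 50 after a start, lay wholly within the regions for 25 genes, with a median GC content of 53.3% and 7 CpG pairs. Over the 193 windows of the opposite pattern the medians were 64.7% and 21, over the 6827 windows within regions of all 4 lists 63.3% and 24, and over all 32585 windows 53.0% and 7. Both other sets were above the level of all promoters. The table of promoters is not complete.

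Motif letters were searched on both strands of these 25 windows. The SP/KLF box GGGCGG was in 8 (32%, 17.2 to 51.6%), against 35.9% of all windows, 69.4% for the opposite pattern and 72.7% for regions of all 4 lists. The KLF CACCC box GGGTGTG, which can overlap GGGCGG in a run of G, was in 6 (24%, 11.5 to 43.4%) against 8.0% of all windows. The PU.1-type ETS motif GAGGAAGT was in 3 (12%, 4.17 to 29.96%) against 3.22%, and the general ETS motif CCGGAAGT, which shares its end, was in 0 against 3.92%. AP-1 TGANTCA was in 2 (8%) against 7.85%, RUNX TGTGGTT in 3 (12%) against 5.29%, TEAD GGAATG in 3 (12%) against 14.6%, C/EBP TTGCNNAA in 2 (8%) against 10.9%, and NF-Y CCAAT in 6 (24%) against 37.6%.

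The E-box (CACGTG), the YY1 motif (AAGATGGC) and the letters searched for IRF and MEF2 were in 1 window each. The MEF2 letters left the central bases open, so a match need not be a MEF2 site. The GATA motif (AGATAA), the SOX motif (ACAATGG), the cAMP response element (TGACGTCA) and the NF-kB, NRF1 and CTCF motifs were in none. With 25 windows, 19 motifs were compared with wide intervals, and the lower bounds of the KLF CACCC box and the PU.1-type motif lay above the share of all windows. A match is a description of letters and not of binding. Sequence outside the promoter windows was not used here.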

How the data were processed

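Accessible chromatin was measured by ATAC-seq in 8 samples of MAECs, in 4 groups of 2 read from the titles. The 4 H3K27ac samples were not analysed here. Each group had 1 peak list. The sources used here do not say whether its samples were pooled or whether a shift for the transposase was made. Tools listed in the submitters' processing notes are MACS2 2.2.9.1 (a peak caller), Bowtie2 2.4.5 (an aligner), SAMtools 1.13, Trim Galore 0.6.10, FastQC 0.12.1 and deepTools 3.5.4, with the build GRCm38 (mm10). The fold enrichment of each peak, a ratio over local background, and its −log10 p and −log10 q score were used as the authors deposited them, as were the summit positions, another deposited column. The lowest −log10 q was 1.30 to 1.31 per list, and genome background was 4.84 to 6.08 reads.

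Peaks overlapping by at least 1 bp were merged, each interval once. Reads piled up at a summit were worked back from fold and −log10 p, as whole numbers; 100% of peaks matched to a relative error of 0.0001, and the lowest pileup was 14 to 16 reads; recovery and merging were tested on simulated data. This pileup stands in for depth, since counts per sample were not used here. Regions were placed against 21627 protein-coding genes from RefSeq (GRCm38.p6). That table has no strand, so the planned distances to starts became distances to either gene end, with a window of 1 kb. Sequences come from a RefSeq promoter table of the same build.

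The members and the 24 gene lists (385 distinct genes, 4 of them in more than 1 list) were chosen with earlier results of these data known. The genes named were the 10 strongest gene-end regions and the 10 strongest others by the lower −log10 q of the WDO lists, genes with 3 or more of the regions, and at most 4 genes per list. One region that the rule names is not reported here. Sequences were the promoters of such genes lying within a region. Python 3.11.15, pandas 2.3.3, numpy 2.4.6, scipy 1.17.1 and matplotlib 3.10.9 were used. Alternatives covered stricter −log10 q, equal list lengths, merging and overlap, windows, assignment, high local background and the expected pileup.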

Additional observations from a re-analysis of the deposited data

How the results depend on the processing

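No paired analysis was possible because each group has 1 peak list that does not separate its samples, and for the same reason no sample could be left out. The number of regions was 527 to 786 under the settings of q, list length, merging, overlap and local background, against 715 as deposited. Asking for an expected pileup of at least 2 times the needed one in both CDO lists left 40 regions, 0.755 for each region of the opposite pattern and 5% at gene ends (2 of 40). The ratio to the opposite pattern, 0.257 as deposited, was 0.206 at a −log10 q of at least 3 and 0.327 with lists of equal length. The gene-end share, 8.39% as deposited, was 12.1% with lists of equal length, 5.31% with a window of 500 bp and 20% with one of 5 kb, and was below that of the opposite pattern in each of these settings. The share over all gene lists, 2.38% as deposited, was 3.63% with lists of equal length, where the share of all assigned regions was 2.48%. For cholesterol export and oxysterol genes the share was 6.15 to 8.70% under the alternatives. For antigen presentation genes it was 2.44% when only regions overlapping a gene span counted, and 0% without regions of high local background, an alternative added after seeing the data. Among the values for single gene lists, 131 stayed within the interval of the deposited value and 13 did not, the antigen presentation values just given among them. The lowest called pileups, 14 to 16 reads, limit what can be seen: a region a little below the call in a CDO list counts as absent there. The causes of these shifts were not tested, beyond the smaller sets that stricter settings leave.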

Other observations

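The genes in this part were chosen after their values were seen. Abca1 is neighboured on chromosome 4 by Mexis, a long non-coding RNA gene known to act on Abca1 in macrophages. One more of the 715 regions overlapped Mexis (chr4:53269624-53270338), with 20 reads in CDM-WDO and 29 in WDM-WDO and −log10 q of 1.37 and 4.12. Those near Abca1 lay 10542 and 21420 bp from Mexis. All 3 regions had more reads in WDM-WDO than in CDM-WDO before scaling.

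Regions at single genes known from immune cells are given as values only. Spi1 encodes PU.1, a transcription factor of myeloid and B cells, and its gene-end region had 37 reads in CDM-WDO and 72 in WDM-WDO over a local background 3.89 times that of the genome. Il1a, an interleukin-1 ligand, had no region in either CDO list, and its region 9811 bp away had 33 and 70 reads, with −log10 q of 9.29 and 31.3. Osm, which encodes oncostatin M, had regions of 42 and 91, and 33 and 53 reads. Socs3, an inhibitor of cytokine signalling, had 49 and 71 reads 18961 bp away. Capg, an actin-capping protein, had 55 and 123 reads over a local background 4.50 times that of the genome. Unc93b1, which carries Toll-like receptors to endosomes, had a gene-end region of 33 and 59 reads. Tlr8 had 25 and 29 reads 11372 bp away and no region in either CDO list. The lists in the order CDM-CDO, WDM-CDO, CDM-WDO and WDM-WDO held 1, 1, 1 and 3 regions of Spi1. They held 2, 3, 4 and 4 of Osm, 4, 6, 5 and 6 of Socs3, and 4, 3, 3 and 4 of Capg. For Unc93b1 they held 1, 0, 1 and 1. Osm and Socs3 each had 1 region of the opposite pattern. Ptprc, another gene of immune cells, had 1 region among the 715 and 3 of the opposite pattern. Its regions in the lists numbered 9, 8, 6 and 6. The macrophage and monocyte markers had gene-end peaks at 5, 5, 3 and 11 of 16 genes in CDM-CDO, WDM-CDO, CDM-WDO and WDM-WDO. Over all protein-coding genes the shares with a gene-end peak were 48.1, 51.2, 40.1 and 47.6%. None of the 42 regions of these markers was among the 715, 4 had the opposite pattern, and the part of such cells was not tested.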
